A study of Sparus aurata with 9 samples.

Results

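Predicted candidates are small RNA sequences that the study kept as possible microRNAs although no miRBase name was given to them. Of the 862 entries in the table of normalized reads, 295 had a name that starts with PC, and all 295 were taken as members. The other 567 entries, with 535 distinct sequences, carried a miRBase name. The name of a candidate gives the arm of the hairpin to which it was assigned, 5p or 3p, and the table gives its sequence and length. No candidate had the sequence of another candidate or of a named entry. The study's methods mention new 5p and 3p candidates from a BLAST search against miRBase precursors. They do not say whether entries with a PC name came from that search and give no precursor for them. Genome positions were not analysed here.

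The libraries came from primary cultures of fast-twitch skeletal muscle cells of gilthead sea bream (Sparus aurata). There were 3 groups of 3 libraries, and all cells grew to day 8 and then spent at least 12 h in a medium free of amino acids. CTR cells stayed in that medium, Earle's salts with vitamins and glucose, for 36 h in all. AA cells spent the last 24 h in DMEM, which returns amino acids and differs from the CTR medium in other components as well. IGF1 cells spent the last 24 h in the CTR medium with recombinant sea bream insulin-like growth factor 1, carried in bovine serum albumin, and thus received the growth factor without amino acids. The study describes 3 independent cultures from fingerlings, but the labels do not tie libraries to cultures, and p-values therefore measure the spread between these libraries, which may be technical in part.

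A microRNA is cut by Drosha and Dicer from a hairpin, which leaves a duplex of a 5p and a 3p strand with short overhangs at both 3′ ends. One strand, the guide, is loaded into an Argonaute protein and pairs with messenger RNAs mainly through its seed, bases 2 to 8, while the passenger strand is mostly degraded. Hairpins are not always cut at the same base, and enzymes can add bases to the 3′ end, so that a microRNA occurs as several isomiRs that differ by a few bases. A variant at the 3′ end keeps the seed, whereas a variant at the 5′ end shifts it. Short fragments of other RNAs, such as small nucleolar RNAs, also fall in the size range of a small RNA library and can be read as candidates.

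The 10 most abundant candidates held 67.4% of the summed means of all 295, and their sequences are shown here because most of the signal of the class lies in them. Each is written 5′ to 3′ with the DNA letters of the table, and capitals mark the seed.
PC-3p-408_18423: aAGCTGCCagctgaagaactcc
PC-3p-915_5220: cTGCCAGAagagtgcctcggat
PC-3p-1979_1704: cAGATGTGatgaatttgaa
PC-3p-968_4832: tGTGCAAAcccatgcaaagctgt
PC-5p-1790_1952: gTGACATGatgaaccagtt
PC-3p-1113_3974: tCAAACGAgccaagctagaact
PC-3p-1292_3152: tTTTCTCAaccgtaaaacctct
PC-5p-1467_2624: tGTCTGTGatgaaaactgt
PC-3p-3101_932: tGCATGCGagatacagtaagtcac
PC-5p-3183_905: tACAATCAacggtcgatggttt

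Depth was inferred as the summed normalized reads of all entries divided by the value of 1 read, the step between low values of a library. It thus covers reads of listed entries alone, and a sequence listed under several names may count more than once. It lay between 7045311 and 8010694 reads in CTR, 9766620 and 11214788 in AA, and 7241678 and 9534840 in IGF1. All values of candidates were multiples of 0.5 reads within 0.02 reads, and the smallest value above 0 was 2.5 reads in every library, so that a candidate listed at 0 may have been present below that level. The muscle microRNA miR-206 was high in all libraries, with 405254 to 698837 normalized reads in its most abundant entry, and so were miR-126 of endothelium (81891 to 104485) and miR-143 of smooth muscle and fibroblasts (52315 to 59208). Of the markers of other cell types, miR-124 of nerve and miR-144 of red blood cells were listed at 0 in some libraries and did not exceed 7.08 and 9.99. By contrast, the most abundant entries of miR-9 of nerve and miR-451 of red blood cells had 48.4 to 85.0 and 200 to 363. For miR-223 of myeloid blood cells the range was 772 to 1333, and for miR-122 of liver 296 to 601. Summed levels of the 13 muscle entries were 502772 to 701242 in CTR, 720535 to 871345 in AA and 502621 to 642784 in IGF1. Those of the 8 smooth muscle and fibroblast entries were 103464 to 116460, 120547 to 132333 and 116967 to 125318, and those of the 9 epithelial entries 662 to 803, 416 to 503 and 438 to 633. The 2 liver entries summed to 508 to 601 in CTR, 296 to 382 in AA and 302 to 412 in IGF1. The 4 endothelial entries summed to 89392 to 112133, 99099 to 106527 and 96187 to 104250, the 4 blood entries to 1125 to 1664, 981 to 1296 and 1177 to 1616, and the 7 neural entries to 102 to 165, 85.9 to 157 and 105 to 124. The muscle, smooth muscle, epithelial and liver sums did not overlap between AA and CTR, the smooth muscle, epithelial and liver sums not between IGF1 and CTR, and the muscle sums not between AA and IGF1. Their part in the comparisons below was not tested. In such bulk samples fewer cells of a type and less RNA per cell cannot be told apart.

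Detection of candidates was far from complete in any library. Between 162 and 200 of the 295 were above 0 in a CTR library, between 210 and 220 in an AA library and between 189 and 203 in an IGF1 library. The AA libraries were also the deepest, and the part of depth in this difference was not tested. At 10 normalized reads or more the counts were 89 to 103 in CTR, 96 to 105 in AA and 100 to 101 in IGF1, and the groups overlapped. A total of 97 candidates (32.9%) were above 0 in all 9 libraries, against 460 of the named entries (81.1%). No candidate was listed in a single library alone, 47 were above 0 in exactly 2 libraries, and 83 were above 0 in at most 3.

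**Figure D1:**
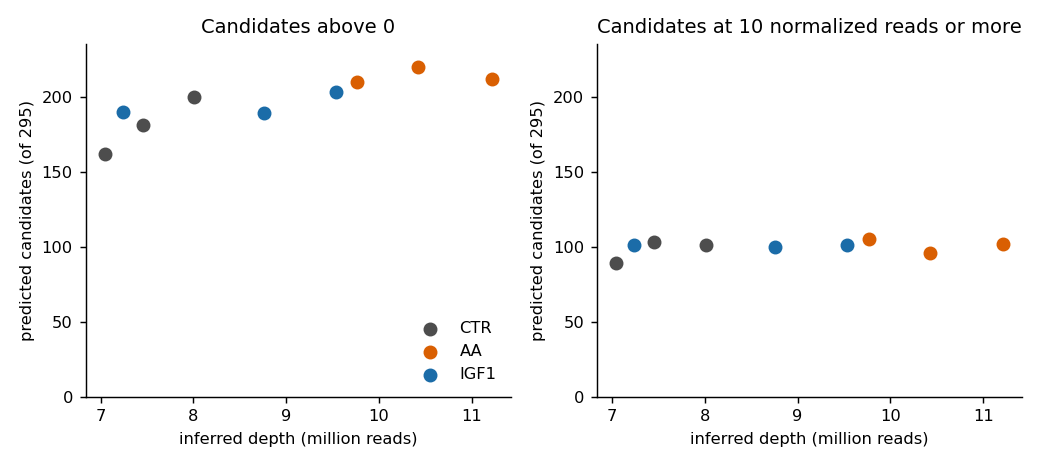
Candidates detected in each of the 9 libraries, of 295, against inferred depth in reads (in units of 1e6), for values above 0 (left) and for values of 10 normalized reads or more (right). Each point is a library. Counts above 0 run from 162 to 220, with the 3 AA libraries highest, whereas counts at 10 or more run from 89 to 105 and overlap between groups.

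Candidates were scarce beside named microRNAs. The median of their means over the 9 libraries was 5.02 normalized reads, against 162 for the named entries, a 32.3-fold difference. Means lay under 1 in 7 candidates, from 1 to 10 in 186, between 10 and 100 in 89, and at 100 or more in 13, of which PC-3p-408_18423, PC-3p-915_5220 and PC-3p-1979_1704 were the highest. The most abundant candidate was entry number 131 of the whole table by mean. All candidates together took 0.152% ± 0.00291 of the normalized reads of CTR libraries (mean and SD, n = 3), against 0.132% ± 0.00641 for AA and 0.133% ± 0.00421 for IGF1, and every CTR library lay above every treated library.

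**Figure D2:**
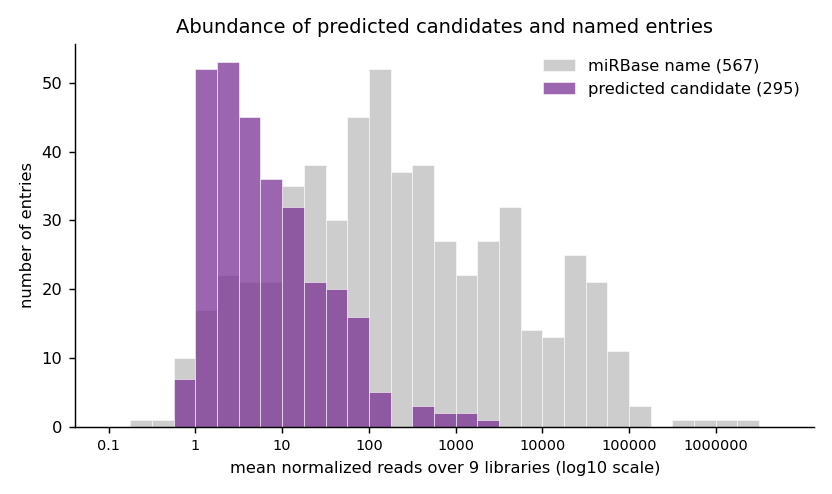
Number of entries by mean normalized reads over the 9 libraries, on a log10 scale, for the 295 predicted candidates (purple) and the 567 entries with a miRBase name (grey). The candidates crowd below 100 normalized reads, with a median of 5.02, while the named entries have a median of 162.

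PC-3p-408_18423, with the sequence shown above, was the most abundant candidate and held 22.9% of the summed means. It had 2793, 3313 and 3319.7 normalized reads in CTR replicates 1 to 3, 2350.1, 2350.9 and 2714 in AA and 2655, 3095 and 2295 in IGF1. The 3 CTR libraries were above the 3 AA libraries, while IGF1 overlapped both. PC-3p-915_5220, the next in abundance, has no named relative in the table. It had 1074, 1679.5 and 1215 normalized reads in CTR, 985, 1364 and 1481 in AA and 963, 1013 and 1155 in IGF1, and the groups overlapped. PC-3p-968_4832 had 843, 961 and 882 in CTR, 788, 936 and 978 in AA and 773, 792 and 769 in IGF1. All 3 IGF1 libraries lay below the 3 CTR libraries, by a narrow margin. PC-3p-1113_3974 and PC-3p-1292_3152 had means of 416 ± 98.4 and 397 ± 76.5 normalized reads, and PC-3p-3101_932 and PC-5p-3183_905 of 146 ± 40.5 and 125.5 ± 11.2 (SD, n = 9). PC-5p-3183_905 was the steadiest of the 10 across libraries, between 115 and 142 normalized reads.

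The 3 remaining candidates of these 10 were 19 nt long and shared the letters TGATGA, which occur in box C, a short motif that small nucleolar RNAs of the C/D class carry near their 5′ end. They are repeated here with TGATGA in capitals.
PC-3p-1979_1704: cagatgTGATGAatttgaa
PC-5p-1790_1952: gtgacaTGATGAaccagtt
PC-5p-1467_2624: tgtctgTGATGAaaactgt
In all 3 the letters started at the same place, after 6 bases. TGATGA was found in 6 of 295 candidates (2.03%) and in 2 of 567 named entries (0.353%), and searching TCATCA, its reverse complement, as well gave the same counts. The 3 shown above, in which the letters were seen, are among the 6, so that these shares are no separate support. The other 3 candidates with these letters were 22 or 23 nt long and had means between 1.23 and 2.35 normalized reads. A match of 6 letters is a description and names no RNA.

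These 3 short candidates held 18.4% of the summed means of the class and varied widely between control libraries. PC-3p-1979_1704 had 2136, 1321 and 1023 normalized reads in CTR, 993, 994 and 1383 in AA and 1012, 867 and 971 in IGF1. CTR replicate 1 stood highest, and all 3 IGF1 libraries lay below the CTR libraries. PC-5p-1790_1952 had 1131.5, 831 and 589 in CTR, 513, 395 and 833 in AA and 756, 528 and 639 in IGF1, and PC-5p-1467_2624 had 493, 271 and 275, then 384, 326 and 314, then 468, 269 and 288. In both, replicate 1 of CTR was the highest of the 9 libraries and the groups overlapped. Summed, the 3 came to 3760 normalized reads in CTR replicate 1 and to between 1664 and 2530.4 in the other 8 libraries. Without them the candidates summed to 8939 to 11530.3 normalized reads in CTR, 9138 to 10061 in AA and 9221 to 9905 in IGF1, so that CTR overlapped the treated groups through replicate 1. The means were then 10458 in CTR, 9597 in AA and 9512 in IGF1, beside 13148, 11642 and 11445 with the 3 included, and CTR replicates 2 and 3 stayed above every treated library.

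By arm, 126 candidates were assigned to 5p and 169 to 3p. The 3p candidates held 74.3% of the summed means, although the median of their means, 4.30 normalized reads, was below that of the 5p candidates, 5.89. Length centred on 22 nt, with 156 candidates (52.9%), followed by 21 nt with 55 and 23 nt with 38. The range of 21 to 23 nt, the usual length of a Dicer product, took in 249 candidates (84.4%) and 80.8% of the named entries. At 23 nt the share was 12.9% of candidates against 23.5% of named entries, and at 21 nt 18.6% against 12.2%. Lengths of 18 to 20 nt were found in 28 candidates, and they made up 18 of the 113 candidates tested but 10 of the 182 that were not. T was the most frequent first base in both sets, at 39.3% of candidates and 44.8% of named entries, and C was next in candidates, at 27.1%, against 19.9%. The 3p candidates started with C in 34.9% and the 5p candidates in 16.7%. These shares are descriptions of the sequences, with no test.

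**Figure D3:**
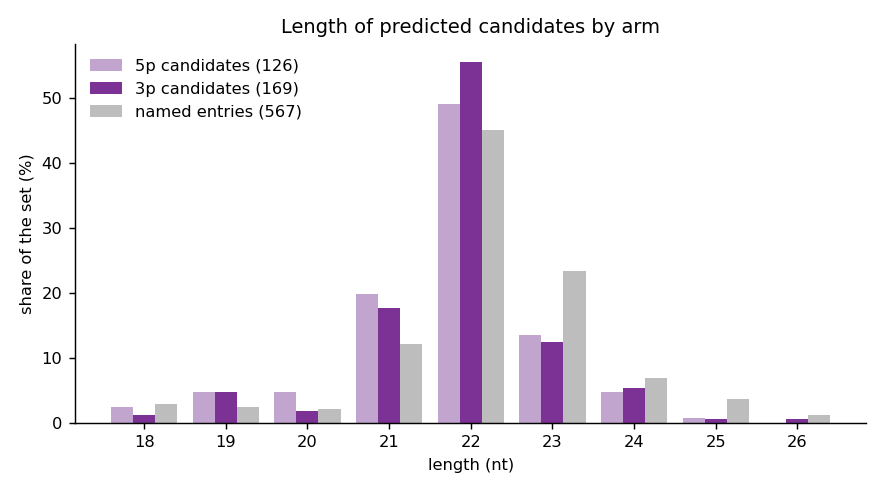
Share of each set, in percent, by length in nucleotides, for 126 candidates of the 5p arm, 169 of the 3p arm and 567 named entries. All sets peak at 22 nt, and the candidates have 12.9% at 23 nt where the named entries have 23.5%.

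A group of candidates was close in sequence to named microRNAs. Of the 295, 27 shared a run of at least 16 bases with a named entry, and 18 of these were tested. These 27 held 35.5% of the summed means of the class. In 17 the whole named sequence lay inside the candidate, 12 of which were 1 base longer. The extra bases were at the 3′ end alone in 13 and at the 5′ end in 4. The remaining 10 differed from their closest entry inside or at an end. The seed was the same as that of the closest entry in 21 of the 27 and different in 6. The examples below show both kinds beside their named entry, with the seed in capitals.
PC-3p-5483_456: cTCACTGAacgatgaatgcaaa
miR-181b-3p: cTCACTGAacgatgaatgcaa
PC-5p-7698_304: cTACTGCAtcaggaactgattggc
miR-217: tACTGCATcaggaactgattggc
PC-3p-408_18423: aAGCTGCCagctgaagaactcc
miR-22b: aAGCTGCCagctgaagaactgt
PC-3p-968_4832: tGTGCAAAcccatgcaaagctgt
miR-19d: tGTGCAAAcccatgcaaagctga

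In full, the names of the entries shown as miR-181b-3p, miR-22b and miR-19d end in R-1_2ss9TA11AG, R+1 and R+1_1ss19AG. The methods do not explain these endings, and such an entry may itself be a variant. Candidates are compared with the entry as listed, and which form is the reference was not settled here. PC-3p-5483_456 held the 21 nt of its named entry and 1 base more at the 3′ end, so that both share a seed. PC-5p-7698_304 held the 23 nt of miR-217 and 1 base more at the 5′ end, which shifts its seed. PC-3p-408_18423 shared its first 20 bases with the miR-22b entry and was 2 edits from it, and PC-3p-968_4832 shared its first 22 bases with miR-19d and was 1 edit from it. The named form was mostly far more abundant. miR-22b had 259 times the mean of PC-3p-408_18423, and this ratio lay between 225 and 306 in the 9 libraries. The ratio was 427 for miR-217 and 10.6 for miR-19d, with 8.65 to 12.2 over the libraries for the latter. miR-181b-3p had only 3.45 times the mean of PC-3p-5483_456. Where a candidate and a named entry differ by an end base, reads could have been divided between them in counting, and their values are uncertain to that extent.

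PC-5p-17476_118 and PC-3p-9190_249 were 1 base longer than the entries for miR-24b-5p and mir-16b-p3, at the 5′ and at the 3′ end respectively, with means of 44.7 and 45.8 normalized reads. The same holds at the 3′ end for PC-3p-9457_242 of miR-458, PC-3p-7792_300 of mir-125b-2-p3 and PC-3p-30182_54 of mir-217-p3, with means of 42.1, 41.5 and 12.6. PC-3p-19970_99, with a mean of 5.71, was 1 base longer than the 3p strand of let-7g, of a family known first from developmental timing in nematodes. Apart from these relatives, 10 candidates shared only the seed of a named entry. The most abundant was PC-5p-4498_581 (tTCCCTGAcctaaaggccctct, capitals for the seed), with a mean of 76.1 normalized reads. Its seed is that of a scarce miR-125b-5p entry with a mean of 10.2, which starts 1 base further 5′ than miR-125b, so that the main form does not share it.

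Candidates also resembled each other. A run of at least 16 shared bases placed 49 candidates in 17 families, of which 10 were pairs, and 20 of the 49 were tested. The largest family had 8 members, all of the 3p arm, and 3 are shown because they differ by a few letters alone, with the seed in capitals.
PC-3p-24459_75: cCTGCCTGttgggtcgcactct
PC-3p-26617_66: cCAGCCTGttgggtcgcactcg
PC-3p-23304_80: cATGCCTGttgggtcgcactcg
The 8 means ran from 0.99 to 10.7 normalized reads, and only PC-3p-24459_75 passed the filter for testing. The family summed to 30.6 to 51.0 normalized reads in CTR, 34.1 to 43.4 in AA and 15.1 to 37.4 in IGF1. PC-5p-4498_581 leads a family of 3 that summed to 67.6 to 117 in CTR, 64.9 to 93.3 in AA and 94.5 to 114 in IGF1. Groups overlapped in the family of 8, and in the family of PC-5p-4498_581 all IGF1 libraries were just above all AA libraries. Over the 17 families, the summed levels of AA and CTR libraries did not overlap in 5, all of them higher in AA. These were the families led by PC-5p-39221_34 (5.43 to 16.6 in CTR, 28.6 to 56.3 in AA), PC-3p-5929_417 (44.9 to 59.2 and 63.7 to 76.9), PC-5p-17833_115 (0 to 22.2 and 30.8 to 57.3), PC-5p-16250_129 (9.23 to 12.1 and 18.5 to 25.9) and PC-3p-18663_108 (2.88 to 5.43 and 12.9 to 17.4). For IGF1 and CTR this count was 1, the family of PC-5p-39221_34. For AA and IGF1 it was 4, of which 2 were higher in AA. Among the 594 single entries tested, AA and CTR libraries did not overlap in 22.6%, with 12.6% higher and 9.93% lower in AA. For IGF1 and CTR this share was 13.3%, and for AA and IGF1 15.3%. Family sums were described and not tested, and AA libraries were the deepest.

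Some candidates could pair with another entry as the strands of a hairpin would. The reverse complement matched over at least 16 bases in 15 pairs of candidates, every one of them a 5p with a 3p name, and 8 candidates matched a named entry in this way. Overhangs of 2 bases at both 3′ ends, the pattern that Drosha and Dicer leave, were present in 5 of the 15 pairs. The 3 of these 5 in which both strands passed the filter are shown, capitals marking the seed.
PC-3p-1113_3974: tCAAACGAgccaagctagaact
PC-5p-6220_394: tTCTAGCTtggctcgtttgagc
PC-3p-4390_600: tGGCAAACcagagaccaccgtt
PC-5p-2402_1316: cGGTGGTCtctggtttgccagc
PC-3p-6712_359: cTTGGCTGagaggagaaacgtc
PC-5p-34233_43: tGTTTCTCctctcagccaagaa

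In the first pair the 3p strand was 9.25 times as abundant as the 5p strand, in PC-3p-6712_359 it was 4.50 times its partner, and in the pair between them the 5p strand was 1.27 times as abundant as the 3p strand. PC-3p-4390_600 had 34.4, 62.3 and 59.3 normalized reads in CTR, 91.9, 76.6 and 78.5 in AA and 81.6, 102 and 64.9 in IGF1. Its partner PC-5p-2402_1316 had 80.9, 73.2 and 67.6 in CTR, 108, 89.9 and 111 in AA and 114, 105 and 78.3 in IGF1. Both strands of this pair were higher in all AA than in all CTR libraries, by a log2 fold change of 0.70 (SE 0.27) and 0.47 (SE 0.20), and neither passed the test (limma adjusted p = 0.234 and 0.282). PC-5p-34233_43 met the filter for testing through CTR alone, and no difference between groups is read from its pair. Among the pairs with a named entry, PC-5p-3183_905 was the complement of miR-181a-3p with 2 bases over at each 3′ end, and miR-181a-3p was 162 times as abundant. A complementary match, to a candidate or to a named entry, does not show that both strands come from the same hairpin. Their origin was not tested. A total of 197 candidates, with 53.3% of the summed means, had no relative of any of these kinds.

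A few short candidates were decided by a pair of libraries, CTR replicate 3 and IGF1 replicate 3. PC-5p-9274_247 (cGCTAGAGgtgaaattct, the seed in capitals, 18 nt) had 0, 0 and 431 normalized reads in CTR, 3.86, 0 and 0 in AA and 14.9, 6.15 and 159 in IGF1. PC-5p-16848_123 (gACATTTGgtgtatgtgctt, 20 nt) had 6.04, 0 and 381 in CTR, 0, 15.8 and 18.5 in AA and 7.02, 5.13 and 242 in IGF1. These 2 libraries held 95.9% and 92.2% of the summed values, and no other library exceeded 14.9 and 18.5 normalized reads. PC-3p-23225_81 and PC-3p-16819_123, both of 19 nt, had 73.8% and 51.4% of their values there. These were the 2 highest libraries in 5 of the 18 tested candidates of 18 to 20 nt, in 2 of the 87 of 21 to 23 nt and in 0 of the 8 of 24 to 26 nt. PC-5p-16848_123, PC-3p-23225_81 and PC-3p-16819_123 were singled out after their values were seen. The pair of libraries was chosen from the same values, and the candidates named here are among the 5. The counts by length are thus no separate support, and named entries were not counted in this way.

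Entries were tested when they had 10 normalized reads or more in 3 or more libraries, which kept 113 of the 295 candidates (38.3%) and 481 of the 567 named entries (84.8%). Just inside this limit were PC-5p-24550_74, PC-3p-41231_31 and PC-3p-26178_67, with 10.04, 10.2 and 10.3 normalized reads in the library that counted last toward the limit. Just outside were PC-3p-26617_66 with 9.97, and PC-5p-13322_163 and PC-5p-29174_57, both with 9.24. PC-5p-34233_43 alone passed the filter through 1 group, CTR, and is among the lower candidates in the counts against CTR below. PC-5p-20310_97, PC-5p-24550_74, PC-5p-38921_34, PC-5p-29915_55, PC-3p-30182_54 and PC-3p-41231_31 had no CTR library at 10 normalized reads. They met the limit through treated libraries alone, and this list may not hold every such candidate. The filter thus favoured a higher level than in CTR for them, and they are among the higher candidates against CTR below. Among the tested candidates the median SD between replicates was 36.9% of the mean in CTR, 24.0% in AA and 27.6% in IGF1, which is 1.89, 1.5 and 1.48 times the SD that counting alone gives at a median of 21 to 26.7 reads per library. Differences are given as log2 fold changes of normalized reads with 1 added, taken between means of the log values. In low entries the 1 added shrinks a change, whereas values at 0 can make it larger than that of the group means. The median SE of these differences was 0.46 for candidates and 0.25 for named entries.

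AA was set against CTR to ask which candidates differ once amino acids return in DMEM. A single candidate passed, PC-3p-5483_456, the form of miR-181b-3p shown above. The miR-181 family is known in mammals to rise as myoblasts differentiate. PC-3p-5483_456 rose from 36.2, 42.7 and 93.0 normalized reads in CTR to 146, 179 and 171 in AA, and IGF1 libraries had 66.7, 70.8 and 48.7. All 3 AA libraries were above the other 6. The log2 fold change was 1.63 (SE 0.33, limma adjusted p = 0.028), higher in 3 of 3 libraries. The named miR-181b-3p entry had 229, 151 and 154 normalized reads in CTR and 570.1, 662 and 633 in AA, a difference of 1.82 on the log2 scale (SE 0.19, adjusted p = 0.000985). The ratio of the named form to the candidate was between 1.65 and 6.33 over the 9 libraries. As the sequences differ by an end base, both entries may describe the same molecules in part.

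Of the 594 entries tested, 2.36% passed in this comparison (1.85% higher and 0.505% lower in AA), and of the 113 candidates 0.885%. The call rested on all libraries of AA. It was lost without AA replicate 1 (adjusted p = 0.0754), AA replicate 2 (0.145), AA replicate 3 (0.0795), CTR replicate 2 (0.118) or IGF1 replicate 2 (0.0523). The direction was the same in each. Without CTR replicate 3, PC-5p-29915_55 and PC-3p-8068_289 passed as well, and without CTR replicate 2 only PC-5p-20310_97 passed. Without both CTR replicate 3 and IGF1 replicate 3, 2 candidates passed, PC-3p-5483_456 and PC-3p-8068_289.

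No other candidate passed in AA, and those with the smallest p-values are given as values. PC-5p-20310_97 had 0, 8.07 and 0 normalized reads in CTR, 18.5, 9.16 and 12.0 in AA and 14.9, 12.3 and 15.1 in IGF1 (AA against CTR 2.72, SE 0.87, adjusted p = 0.154). PC-5p-24550_74 had 0, 8.07 and 0 in CTR and 10.04, 8.32 and 17.5 in AA, with an adjusted p of 0.222. Both were at a few reads per library, and both were listed at 0 in CTR replicates 1 and 3. They met the filter through treated libraries alone. PC-5p-38921_34 was listed at 0 in all 3 CTR libraries and had 4.64, 6.66 and 22.2 in AA and 11.4, 0 and 18.6 in IGF1. Its adjusted p was 0.225, no fold is given against a group at 0, and it too met the filter through treated libraries alone. PC-5p-7698_304, the form of miR-217 with a shifted seed, had 26.6, 30.0 and 45.4 in CTR and 52.5, 64.9 and 73.0 in AA (0.91, SE 0.34, adjusted p = 0.231). The groups did not overlap in it, and miR-217 itself had a log2 fold change of 0.21 (SE 0.18). The mir-217-p3 entry passed, at 1.25 (SE 0.17, limma adjusted p = 0.00337), and its longer form PC-3p-30182_54 was at 2.43 (SE 1.22, adjusted p = 0.347). The mir-29a-1-p5 entry, closest to PC-5p-6040_408, passed as well, at -1.35 (SE 0.23, adjusted p = 0.00994). That candidate was at -0.50 (SE 0.28, adjusted p = 0.394).

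Among the candidates that were lower in AA, PC-3p-22787_83 had 49.5, 34.6 and 36.6 normalized reads in CTR and 0, 9.99 and 22.2 in AA (-2.68, SE 1.02, adjusted p = 0.231). PC-3p-23428_80 had 18.1, 11.5 and 29.9 in CTR and 4.64, 11.7 and 0 in AA (-2.23, SE 0.87, adjusted p = 0.233). PC-5p-12922_169 had 76.1, 71.5 and 51.0 in CTR and 46.4, 42.5 and 41.6 in AA (-0.58, SE 0.26, adjusted p = 0.297). These 3 candidates were 19 or 20 nt long, and their groups overlapped in PC-3p-23428_80 alone. The abundant PC-3p-408_18423 was at -0.34 on this scale (SE 0.16, adjusted p = 0.310), with all CTR libraries above all AA libraries, and the miR-22b entry had -0.28 (SE 0.09).

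Over all 113 candidates tested, 62 were higher and 51 lower in AA than in CTR, with a median log2 fold change of 0.09, against 0.08 over all 594 entries. The median of the candidates was -0.04 after quantile normalization, which turns its sign. An unadjusted p under 0.05 was found in 14 candidates, 12.4% of those tested, beside 16.5% of all entries. Of these 14, 11 were higher and 3 lower in AA, beside 9.93% and 6.57% of all entries. The groups did not overlap in 20 candidates (17.7%), beside 22.6% of all entries. They were higher in AA in 15 and lower in 5, beside 12.6% and 9.93% of all entries. Among the 15 are PC-5p-20310_97, PC-5p-24550_74, PC-5p-38921_34 and PC-3p-30182_54, which met the filter through treated libraries alone.

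**Figure D4:**
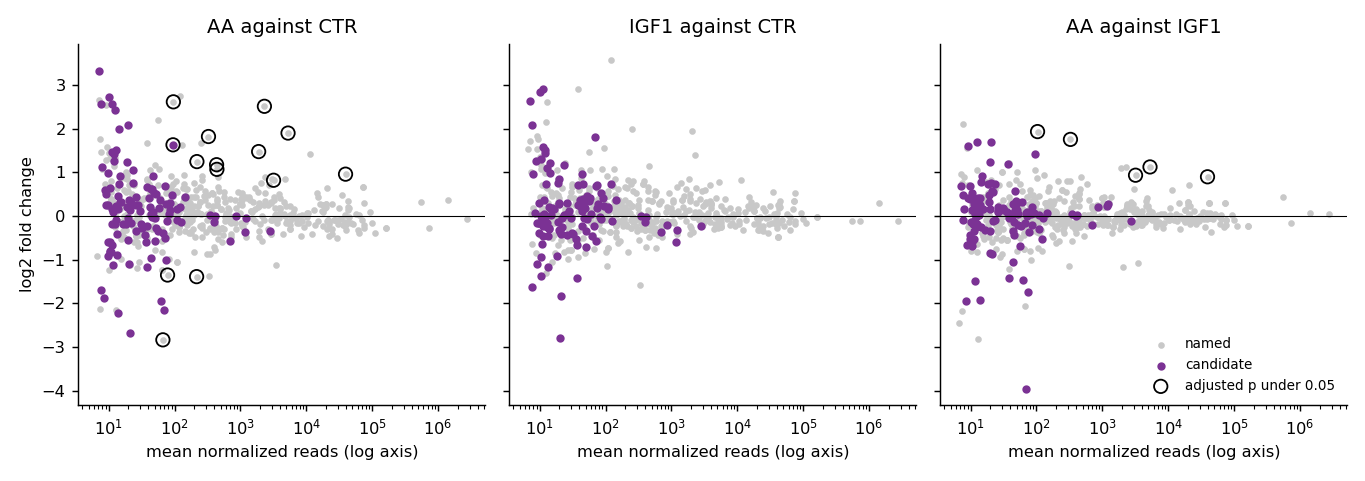
Log2 fold change against mean normalized reads over the 9 libraries, on a log axis, for the 594 entries tested in each of the 3 comparisons. Candidates are purple, named entries grey, and a ring marks an adjusted p under 0.05. A single candidate is ringed, PC-3p-5483_456 in AA against CTR at 1.63.

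IGF1 was set against CTR to ask which candidates differ under the growth factor without amino acids. No candidate passed in limma, and no entry of any kind did (0.00% of 594). An unadjusted p under 0.05 was found in 11 candidates, 9.73% of those tested, beside 10.3% of all entries (5 higher and 6 lower, beside 5.89% and 4.38%), and over the alternatives tried the count of candidates that passed was 0 except with weights estimated per library, where it was 1. The smallest p was that of PC-3p-19263_104 (tCTTCTTTtgtctctttctgca, the seed in capitals), which has no named relative in the table. It had 65.2, 46.1 and 42.1 normalized reads in CTR, 41.7, 44.95 and 42.5 in AA and 14.0, 19.5 and 22.04 in IGF1. All 3 IGF1 libraries lay below the other 6, at -1.41 on the log2 scale relative to CTR (SE 0.28, adjusted p = 0.114). With weights estimated per library it passed, with an adjusted p of 0.0483, the alternatives giving adjusted p-values between 0.0483 and 0.5.

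PC-5p-20310_97 differed by 2.85 (SE 0.87, adjusted p = 0.328), from the values given above. PC-5p-21316_91 had 26.6, 31.1 and 48.7 normalized reads in CTR and 7.90, 0 and 13.9 in IGF1 (-2.79, SE 0.96, adjusted p = 0.367). PC-5p-29915_55 had 0, 0 and 9.97 in CTR and 13.2, 21.5 and 13.9 in IGF1, with the same adjusted p. None of these 3 exceeded 50 normalized reads in any of these libraries, and in each the groups did not overlap. PC-5p-20310_97 and PC-5p-29915_55 met the filter through treated libraries alone. PC-5p-2864_1047 (gACCTCAGatcagacgaga, 19 nt) had 91.8, 113 and 82.0 in CTR, 110, 102 and 115 in AA and 104.4, 189 and 198 in IGF1. Its IGF1 libraries 2 and 3 were high and the first overlapped CTR (0.73, SE 0.26, adjusted p = 0.368). The 3 short candidates with TGATGA had log2 fold changes below 0.6 in size, with -0.59 (SE 0.26, adjusted p = 0.468) in PC-3p-1979_1704.

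Over the 113 candidates, 59 were higher and 54 lower in IGF1 than in CTR, with a median log2 fold change of 0.03, against 0.05 over all 594 entries. After quantile normalization the median of the candidates was -0.10. The groups did not overlap in 12 candidates (10.6%), beside 13.3% of all entries. They were higher in IGF1 in 3 and lower in 9, beside 5.56% and 7.74% of all entries.

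AA and IGF1 libraries were also compared directly. No candidate passed in limma, where 0.842% of the 594 entries did. An unadjusted p under 0.05 was found in 4 candidates (3.54%), beside 8.75% of all entries, with 3 higher and 1 lower in AA, beside 6.06% and 2.69%. PC-3p-19263_104 was higher in all AA libraries, by 1.20 (SE 0.28, adjusted p = 0.0828), and PC-3p-5483_456 by 1.41 (SE 0.33, adjusted p = 0.0886). Both passed without CTR replicate 1 (adjusted p = 0.047 and 0.0433) and with weights estimated per library, and PC-3p-5483_456 also without CTR replicate 3 (0.0315) and in a fit of the AA and IGF1 libraries alone (0.0292). For PC-3p-5483_456 the adjusted p ran from 0.0153 to 0.285 over the alternatives, and for PC-3p-19263_104 from 0.0108 to 0.28. The effect of AA on PC-3p-5483_456 is therefore not shown to differ from that of IGF1 in this test. Its named relative, the miR-181b-3p entry, did pass here, by 1.76 (SE 0.19, limma adjusted p = 0.00252), with 177, 177 and 195 normalized reads in IGF1. In IGF1 against CTR that entry differed by 0.07 (SE 0.19, adjusted p = 0.912). The direct comparison of AA with IGF1 shares the AA libraries with the first comparison and the IGF1 libraries with the second.

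Of the other candidates under that unadjusted limit, PC-3p-12825_171 (19 nt) had 32.4, 30.8 and 31.4 normalized reads in AA and 24.6, 17.4 and 15.1 in IGF1 (0.73, SE 0.32, adjusted p = 0.553). PC-3p-5031_505 had 32.4, 46.6 and 51.7 in AA and 78.1, 59.5 and 70.7 in IGF1 (-0.68, SE 0.30, adjusted p = 0.553). Groups did not overlap in either. PC-3p-5031_505 shares the seed and its first 17 bases with a scarcer entry of miR-214, a microRNA of differentiating muscle and skeleton. That entry had a mean of 458 normalized reads and starts further 5′ than the main miR-214 entry. The main entry, with a mean of 35659, has another seed. Over the 113 candidates, 68 had a higher and 45 a lower level under AA than under IGF1, and the median difference was 0.06, against -0.00025 over all entries. Groups did not overlap in 13 candidates (11.5%), beside 15.3% of all entries, with 6 higher and 7 lower in AA, beside 9.60% and 5.72%.

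**Figure D5:**
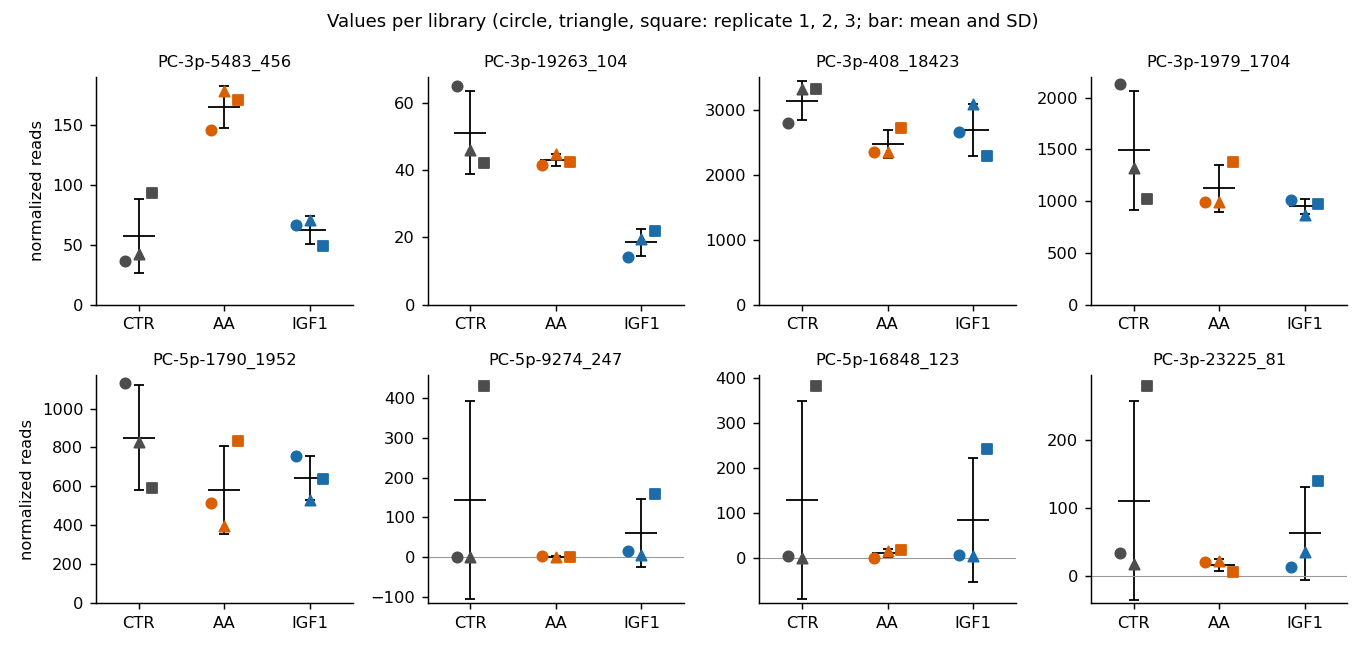
Normalized reads of 8 candidates in the 9 libraries, by group. Circles, triangles and squares are replicates 1, 2 and 3, and bars give the mean and SD of 3 libraries. PC-3p-5483_456 has 146 to 179 in AA and 36.2 to 93.0 in CTR, PC-3p-19263_104 has 14.0 to 22.04 in IGF1, and the last 3 panels show candidates that are high in CTR replicate 3 and IGF1 replicate 3.

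Some candidates were listed in every library of 1 group and at 0 in every library of another. Of the 295, 9 were above 0 in all AA and at 0 in all CTR libraries, whereas none showed the opposite. In the 567 named entries these counts were 3 and 0. For IGF1 and CTR the counts of candidates were 3 above 0 in all IGF1 and at 0 in all CTR libraries and 3 the other way, beside 1 and 0 among named entries. For AA and IGF1 they were 4 and 0 of the 295 candidates, and also 4 and 0 of the 567 named entries, which is a smaller share of the named entries. The deeper group had the larger count or an equal one each time. Candidates were also scarcer than named entries, and the part of depth and of abundance in these counts was not tested. The values concerned were low. PC-3p-34167_44 (tTAAAACAtgttaacttattgt, the seed in capitals) was the only candidate above 0 in all libraries of both treatments and at 0 in all of CTR, with 10.04, 4.16 and 6.46 normalized reads in AA and 7.90, 5.13 and 5.80 in IGF1. It did not meet the filter. Without a filter it passed the test in AA, but it was picked here for being at 0 in CTR, so that this pass is no separate evidence. PC-5p-30147_54 (gAAACGGAccccataaccagct) was above 0 in all CTR and AA libraries, between 3.46 and 5.54, and at 0 in all of IGF1. PC-3p-39790_33, a form that shares its first 22 bases with miR-23a-3p, had 5.41, 4.16 and 4.62 in AA and was at 0 in all of CTR, while the miR-23a-3p entry had a mean of 439 normalized reads. Only 1 of these candidates, PC-5p-38921_34, was abundant enough to be tested.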

How the data were processed

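Small RNA was sequenced from 9 libraries, 3 each of CTR, AA and IGF1, grouped by the GEO labels. The authors trimmed single-end reads, kept unique sequences of 18 to 26 nt, matched them by BLAST to miRBase precursors, and deposited the normalized reads of each entry and library (a signal) in 1 table with group means and a p-value. The authors' p-values and their means were not used. By the methods, known microRNAs and 5p and 3p candidates came out of that search, and precursors were then placed on a genome. Whether the entries with a PC name are those candidates was not stated. The normalization formula, the criteria by which an entry became a candidate and the genome build of this step were not stated.

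The 594 of 862 entries that reached 10 normalized reads in 3 or more libraries were fitted in 1 linear model on log2(normalized reads + 1) with limma 3.58.1 (R 4.3.3), empirical Bayes moderation and an intensity trend, without a block. Tests were two-sided, Benjamini-Hochberg adjustment covered all 594 entries, and an adjusted p under 0.05 was called. The fit was tested on simulated data. Depth, 7045311 to 11214788 reads, was inferred as the sum over all entries divided by the step between low values, and covers listed entries alone. The counting SD given covers counting error only.

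Sequences were compared in Python 3.11.15 with pandas 2.3.3, numpy 2.4.6 and edlib 1.3.9.post1. A relative shares a run of at least 16 bases. Figures were drawn with matplotlib 3.10.9. Candidates named in the text were the 10 most abundant, those past the threshold, the 6 higher and 6 lower with the smallest p-values in each comparison, those present in 1 group and at 0 in another, members of families and close relatives of named entries, those with a named seed, and those next to the filter. The members, lists and tests were chosen with earlier results of these data known. Alternatives were other pseudocounts, filters, scalings, weights, a replicate block, fits of the 2 groups compared, and leaving out libraries.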

Additional observations from a re-analysis of the deposited data

How the results depend on the processing

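In AA against CTR, where 1 candidate passed, the count was 2 without a filter, 0 after quantile normalization, 0 without the intensity trend, 11 with weights estimated per library, 0 in a fit of the compared libraries alone, 2 without both CTR replicate 3 and IGF1 replicate 3 (an alternative chosen after seeing the data), and 0 to 3 with 1 library left out. In IGF1 against CTR it was 1 with weights per library. In AA against IGF1 it was 2 with weights per library, 1 in a fit of the compared libraries alone and 0 to 2 with 1 library left out. PC-3p-5483_456 turned its sign in IGF1 against CTR with weights per library (-0.236), and lay between -0.042 (without CTR replicate 1) and 0.79 (without both replicates 3) with libraries left out, past the threshold in none. The replicate numbers were not taken to pair the libraries, since the labels do not tie libraries to cultures. Of the 9 pairs with the same number, 6 had a correlation of deviations over 0.1. Of the pairs with different numbers, only CTR 2 with AA 3 (0.259), AA 1 with IGF1 2 (0.135) and CTR 3 with AA 2 (0.127) did. As a hint from the data and not from the design, 8 of the 9 libraries had their single highest correlation with a library of their own number, and 4 had it in both other groups. With a replicate block the candidates that passed were 1, 0 and 0 in the 3 comparisons, and 31, 2 and 10 entries of any kind passed, against 14, 0 and 5 without it. For 37 comparisons of single candidates, the one past the threshold and those with the smallest p-values, 686 values under the alternatives kept their direction and side of the threshold, 12 newly passed it, 8 no longer passed it and 2 turned their sign. Over all 318 comparisons of the candidates named by rule, the range over the alternatives crossed 0 in 67. The cause of these changes was not tested. The median counting SD of tested candidates was 19.4% to 21.8% of the mean by group, below the SD between replicates of 24.0% to 36.9%.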
